A study of Mus musculus with 6 samples.

Results

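The collagen chain genes of mouse were examined in mouse embryonic fibroblasts (cells of embryonic connective tissue kept in culture) that had been starved for 6 h. A gene was taken as a collagen chain when its symbol in the platform annotation had the form Col, a number, the letter a and a number, and when the probe set listed a single symbol. This gave 36 genes, covered by 58 probe sets, out of 12393 genes measured. The RefSeq gene table held 44 symbols of this form, and the remaining 8 (Col6a4, Col6a5, Col6a6, Col8a2, Col23a1, Col24a1, Col27a1 and Col28a1) were not analysed here. RNA of starved wild-type cells was read on 3 arrays and RNA of wild-type cells kept in normal medium (control) on another 3. The labels give no mouse strain, embryonic age or passage, and they do not say which medium component was withdrawn. Replicates are named biological, but separate cultures are not stated, so the p-values measure the spread between these arrays, which may be technical.

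Collagens are secreted proteins built from a trio of chains that wind into a triple helix, and each chain is the product of its own gene. Fibrillar collagens pack into the fibres that give connective tissue its strength, whereas type IV collagen forms the sheet-like network of basement membranes. Type VI collagen makes beaded filaments around cells, and FACIT collagens (fibril-associated collagens with interrupted triple helices) decorate the surface of fibrils. Fibroblasts are the main source of collagens I, III, V and VI in most tissues.

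Values are log2 array signals, and every difference is starved minus control on the log2 scale, given with its standard error (SE) for most genes described by array. A chain is said to have risen or fallen when limma, fitted over all 12393 genes with Benjamini-Hochberg adjustment, gave an adjusted p below 0.05. The probe set with the highest mean over the 6 arrays stands for its gene. The number of arrays limits the precision, and a log2 signal compares a gene between arrays but not with another gene. In bulk RNA, fewer cells making a chain and less of its RNA per cell cannot be told apart. The 11 measured fibroblast markers averaged 10.87 to 10.89 in starved arrays and 10.84 to 10.91 in control arrays. Vim, the mesenchymal intermediate filament, averaged 14.13 ± 0.04 in starved and 13.93 ± 0.01 in control cells, and the fibroblast receptor gene Pdgfra averaged 10.71 ± 0.01 and 10.37 ± 0.08 (SD, n = 3 each). Of the 11 markers 5 rose, among them Vim and Pdgfra (45.5%, against 22.1% of all genes). A further 3 fell, Twist2 (−1.15), Thy1 (−0.40) and Pdgfrb (−0.28), which is 27.3%, against 22.0% of all genes. Averaged over their probe sets, Pdgfra lay at −0.03 and Pdgfrb at −0.19, and neither passed. All 10 measured endothelial markers and 9 of 10 macrophage and blood markers lay among the dimmest 40% of genes by mean signal (called dim). The mean of the 18S ribosomal RNA control probe sets was 12.82 in starved replicate 1, against 13.45 and 13.65 in the other starved arrays and 13.40 to 13.71 in the control arrays, and the 17 chains that rose also did so without starved replicate 1.

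Collagen chains were more often higher than lower in starved fibroblasts. Of the 36 chains 17 rose, 1 fell and 18 did not pass. The risen chains made up 47.2% of the family, against 22.1% of all genes, and the fallen chain 2.78%, against 22.0% of all genes. The median difference of the 36 chains was 0.23, against −0.05 for all genes. Every starved array lay above every control array for 20 chains and below for 2, where 25.7% and 28.4% of all genes did so (54.0% in either direction). Of the risen chains 4 had a difference of at least 1 (Col5a3, Col4a2, Col6a3 and Col12a1), where 2.64% of all genes rose by that much. The mean over the 36 chains was 7.65, 7.63 and 7.56 in the starved arrays and 7.25, 7.23 and 7.29 in the control arrays. Of the 18 chains that did not pass 16 were among the dimmest 40% of genes, as were 3950 of the 6930 genes that did not pass in all.

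**Figure D1:**
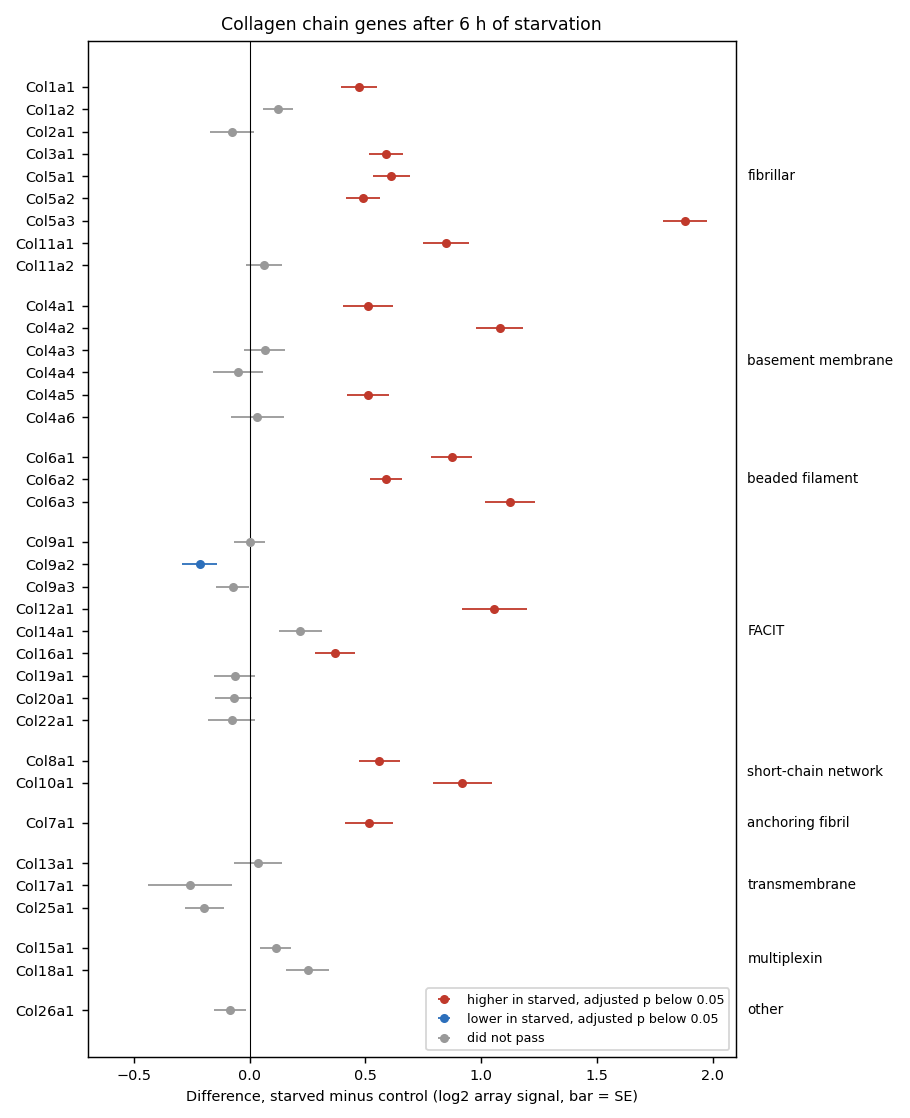
Difference between starved and control arrays (log2 array signal, x axis) for each of the 36 collagen chains, grouped by structural class from top to bottom. Points are differences and bars are SE, red for the 17 chains that rose, blue for the 1 that fell and grey for those that did not pass. Col5a3 stands farthest to the right, and the 3 beaded-filament chains are all red.

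The overall direction depended on the scaling of the arrays. Spike-in RNAs, added in known amounts, read higher in starved arrays. The 24 poly-A spike-in probe sets averaged 7.76 to 7.96 in starved and 7.41 to 7.43 in control arrays, and the 18 hybridization spike-in probe sets averaged 10.26 to 10.37 and 10.12 to 10.14. With each array centred on the hybridization spike-ins, 16 chains were higher and 8 lower, where 13.5% and 49.2% of all genes were so called. The same step with the poly-A spike-ins (poly-A centring) lowered each difference by 0.43, and 7 chains were then higher and 17 lower, where 6.94% and 75.2% of all genes were so called. The 7 chains higher under all of these scalings were Col5a3, Col11a1, Col4a2, Col6a1, Col6a3, Col12a1 and Col10a1. After poly-A centring the median of the chains was −0.19, against −0.47 for all genes. Directions below are those of the deposited values, so they are relative to the other genes on the array.

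**Figure D2:**
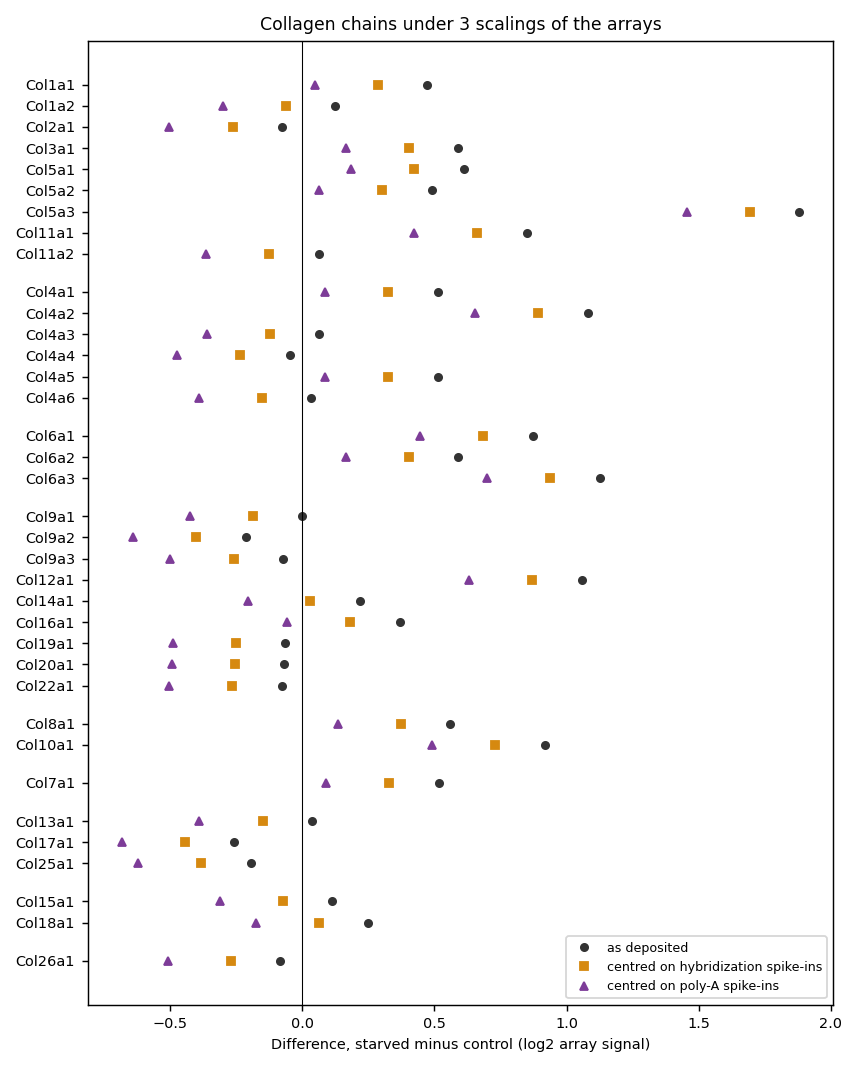
Difference between starved and control arrays (log2 array signal, x axis) of the 36 chains as deposited (circles), centred on hybridization spike-ins (squares) and centred on poly-A spike-ins (triangles). All chains move left by the same amount, and 7 of them stay far enough to the right of 0 to be called higher.

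The structural classes differed in how many chains rose, and no test was made between classes. Over all genes 22.1% rose and 22.0% fell. Of 9 fibrillar chains 6 rose, 0 fell and 3 did not pass (median 0.49). Of 6 basement membrane chains 3 rose, 0 fell and 3 did not pass (median 0.29). All 3 measured beaded-filament chains rose, with a median of 0.87. Of 9 FACIT chains 2 rose (22.2%, close to the share of all genes), 1 fell (11.1%) and 6 did not pass (median −0.07). Of the FACIT chains 7 were among the dimmest 40% of genes, compared with 3 fibrillar, 3 basement membrane and 0 beaded-filament chains. After poly-A centring the medians were 0.06 for fibrillar, −0.14 for basement membrane, 0.45 for beaded-filament and −0.49 for FACIT chains, against −0.47 for all genes. The fibrillar counts became 2 higher and 3 lower of 9, where 6.94% and 75.2% of all genes were so called.

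Among fibrillar chains, Col5a3 had the largest difference, and on the brightest probe sets the largest of all 36 chains. It encodes the alpha 3 chain of type V collagen, a minor fibrillar collagen that helps start fibril assembly. Col5a3 read 7.14, 7.11 and 6.83 in starved arrays, against 5.23, 5.05 and 5.15 in control arrays. The groups were far apart, a 3.69-fold rise (1.88, SE 0.10, adjusted p = 4.58e-07, limma). Its mean lay just inside the dimmest 40% of genes (percentile 39.4), so it was not tested once dim genes were left out. A second, dimmer probe set of Col5a3 did not pass (3.25 ± 0.01 in starved and 3.21 ± 0.09 in control, SD, n = 3 each, difference 0.04), and averaging both probe sets gave 0.96, which passed but lay below Col6a3 (1.13), Col4a2 (1.08) and Col12a1 (1.06). The partner chains of type V had smaller differences. Col5a1 read 12.18, 12.04 and 11.96 in starved arrays, against 11.44, 11.39 and 11.51 in control arrays (0.61, SE 0.08, adjusted p = 0.000152). Col5a2 read 12.82, 12.66 and 12.76 in starved arrays, against 12.29, 12.21 and 12.28 in control arrays (0.49, SE 0.07, adjusted p = 0.000348).

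Types I and III collagen make up the main fibres of connective tissue. Col1a1, which supplies the pair of identical chains in type I collagen, read 11.98, 12.08 and 12.00 in starved arrays, against 11.63, 11.43 and 11.58 in control arrays. The groups did not overlap, and Col1a1 rose by 0.47 (SE 0.08, adjusted p = 0.000707). Col1a2, the other chain of type I collagen, read 14.14, 14.18 and 14.15 in starved arrays, against 14.06, 14.02 and 14.02 in control arrays. Its groups did not overlap either, but the difference of 0.12 (SE 0.06) did not pass (adjusted p = 0.149), at a signal close to the array maxima of 14.52 to 14.59. The dimmer probe set of Col1a2 averaged 13.17 ± 0.03 in starved and 12.81 ± 0.03 in control arrays (SD, n = 3 each), and it rose by 0.36 when every probe set was tested on its own (adjusted p = 0.00222, limma). Col3a1, which forms type III collagen alone, read 13.04, 12.91 and 12.88 in starved arrays, against 12.30, 12.34 and 12.42 in control arrays (0.59, SE 0.07, adjusted p = 0.00013). After poly-A centring Col1a1 lay at 0.05, Col3a1 at 0.16 and Col1a2 at −0.30.

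The fibrillar chains known from cartilage gave a mixed picture. Col11a1, a chain of type XI collagen, read 11.02, 10.72 and 10.69 in starved arrays, against 9.96, 9.88 and 10.05 in control arrays. It rose 1.80-fold (0.85, SE 0.10, adjusted p = 7.49e-05), and its other probe set rose by 0.89. Col2a1, the chain of the main cartilage collagen, was dim and did not pass (4.32 ± 0.16 in starved and 4.40 ± 0.11 in control). Col11a2 was also dim (4.48 ± 0.12 in starved and 4.42 ± 0.04 in control) and did not pass. Sox9, the transcription factor that drives cartilage collagens, averaged 8.02 ± 0.12 in starved and 8.05 ± 0.09 in control cells (SD, n = 3 each), and the cartilage proteoglycan gene Acan averaged 3.92 ± 0.08 and 4.09 ± 0.23, and neither passed. Of 9 measured chondrocyte markers 3 rose (33.3%), Hapln1, Matn3 and Sox5, 0 fell and 6 did not pass. The shares over all genes were 22.1% higher and 22.0% lower, and 7 of the 9 markers were dim. The call of Hapln1 was lost without control replicate 1 or 3 or starved replicate 1 or 3, with differences of 0.33 to 0.52. It was also lost without probe sets that can bind several transcripts (0.149). That of Matn3 was lost without control replicate 1 (0.335) or starved replicate 1 (0.302). Sox5 did not pass when its probe sets were averaged (0.12). The mean of the chondrocyte list was 4.83 to 4.89 in starved and 4.65 to 4.80 in control arrays, and its part in the rise of Col11a1 was not tested.

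Among basement membrane chains Col4a1, Col4a2 and Col4a5 rose, and the other 3 were dim and did not pass. Col4a1 and Col4a2 together make the type IV collagen found in nearly all basement membranes. Col4a2 read 11.92, 11.76 and 11.54 in starved arrays, against 10.58, 10.62 and 10.77 in control arrays. It rose 2.11-fold (1.08, SE 0.10, adjusted p = 2.04e-05). Col4a1 read 11.36, 11.39 and 10.99 in starved arrays, against 10.75, 10.66 and 10.80 in control arrays, with starved replicate 3 nearest to the control range. It rose by 0.51 on the brightest probe set (SE 0.11, adjusted p = 0.0032) and by 0.79 on the other. Col4a5, which joins the networks of kidney and other specialised membranes, read 10.08, 9.97 and 10.18 in starved arrays, against 9.46, 9.53 and 9.72 in control arrays (0.51, SE 0.09, adjusted p = 0.0011). Its kidney partners Col4a3 and Col4a4 lay between 3.25 and 4.11 on every array and did not pass (0.06 and −0.05), and neither did Col4a6 (0.03). After poly-A centring Col4a2 stayed higher at 0.65, Col4a1 and Col4a5 lay at 0.09 each, and the 3 dim chains were lower.

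**Figure D3:**
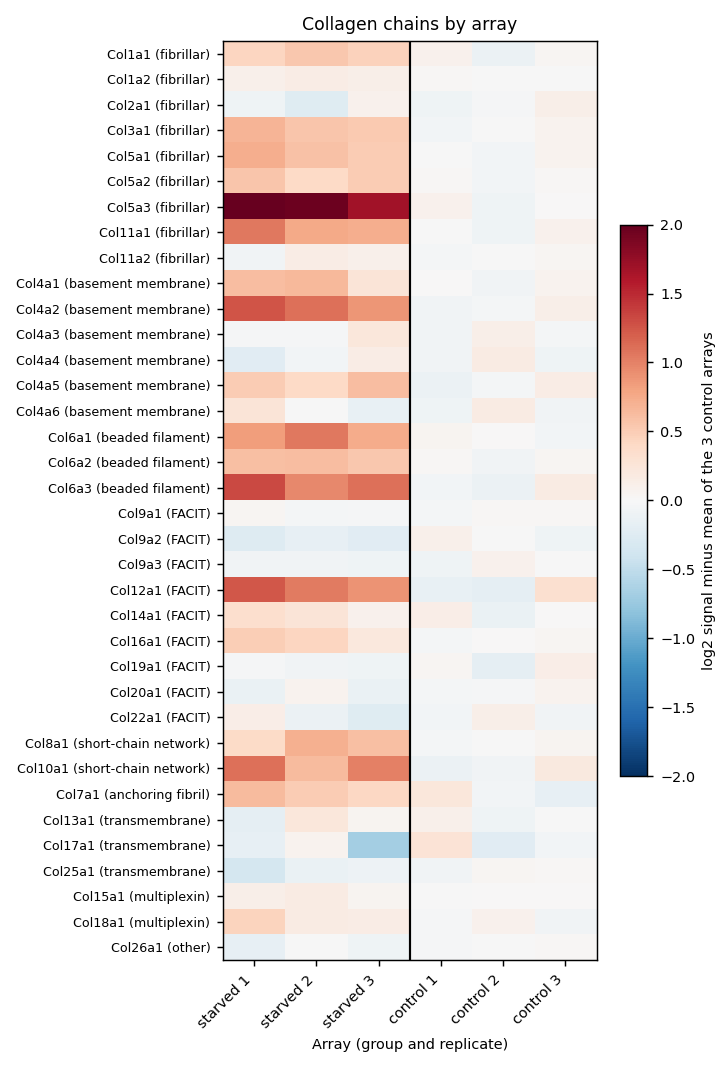
Signal of each chain on each array as the log2 difference from the mean of the 3 control arrays (colour scale), with the 3 starved arrays left of the black line and the 3 control arrays right of it. The chains that rose lie on the red side of the scale on all 3 starved arrays, though only faintly for Col16a1 in starved replicate 3. Most FACIT and transmembrane chains are pale on all 6 arrays.

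All 3 beaded-filament chains measured rose together. Col6a1, Col6a2 and Col6a3 combine in equal parts to make type VI collagen, a filament that surrounds cells and links them to the fibrillar matrix. Col6a3 read 11.82, 11.46 and 11.60 in starved arrays, against 10.45, 10.38 and 10.67 in control arrays. It rose 2.18-fold (1.13, SE 0.11, adjusted p = 2.27e-05). Col6a1 read 12.05, 12.28 and 11.96 in starved arrays, against 11.27, 11.22 and 11.17 in control arrays (0.87, SE 0.09, adjusted p = 3.64e-05). Col6a2 read 12.12, 12.14 and 12.07 in starved arrays, against 11.54, 11.46 and 11.57 in control arrays (0.59, SE 0.07, adjusted p = 7.46e-05). The groups of all 3 chains were apart. After poly-A centring Col6a3 and Col6a1 stayed higher (0.70 and 0.45), while Col6a2 lay at 0.16 and did not pass.

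Of the FACIT chains Col12a1 and Col16a1 rose. Col12a1, which sits on type I fibrils, read 10.08, 9.87 and 9.73 in starved arrays, against 8.69, 8.66 and 9.16 in control arrays, with control replicate 3 above the other controls. It rose 2.08-fold (1.06, SE 0.14, adjusted p = 0.000168). Col16a1, a FACIT chain of skin and cartilage, read 8.58, 8.51 and 8.29 in starved arrays, against 8.04, 8.10 and 8.12 in control arrays (0.37, SE 0.09, adjusted p = 0.00594), but it did not pass with centring on the hybridization spike-ins (0.18) and lay at −0.06 after poly-A centring. Col14a1, a relative of Col12a1 on type I fibrils, averaged 5.60 ± 0.13 in starved and 5.38 ± 0.13 in control cells (SD, n = 3 each) and did not pass (0.22, adjusted p = 0.0843, limma). The chains of type IX collagen, which coats the type II fibrils of cartilage, were dim. Col9a2 read 4.11, 4.21 and 4.14 in starved arrays, against 4.47, 4.36 and 4.28 in control arrays, and was the chain that fell (−0.22, SE 0.08, adjusted p = 0.0421). That call was lost when any array but control replicate 3 was left out. Col9a1 (0.00) and Col9a3 (−0.07) did not pass. Col19a1 (−0.07), Col20a1 (−0.07) and Col22a1 (−0.08) were also dim and did not pass.

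The remaining classes held few chains. Both short-chain network chains rose. Col8a1, a chain of the type VIII collagen of vessel walls and the cornea, read 9.14, 9.46 and 9.35 in starved arrays, against 8.71, 8.74 and 8.81 in control arrays (0.56, SE 0.09, adjusted p = 0.000584). Col10a1, known from hypertrophic cartilage, read 5.78, 5.31 and 5.69 in starved arrays, against 4.56, 4.60 and 4.87 in control arrays (0.92, SE 0.13, adjusted p = 0.000255). Its mean lay among the dimmest 40% of genes. Col7a1, whose product forms the fibrils that anchor the epidermis, read 6.54, 6.41 and 6.33 in starved arrays, against 6.13, 5.86 and 5.74 in control arrays (0.52, SE 0.10, adjusted p = 0.00268). The transmembrane chains Col13a1 (0.04), Col17a1 (−0.26) and Col25a1 (−0.20) did not pass and were dim. Of these Col17a1, a component of the epithelial hemidesmosome, varied most within a group, with 3.84, 4.07 and 3.32 in starved arrays and 4.28, 3.78 and 3.95 in control arrays. The multiplexins Col15a1 (0.11) and Col18a1 (0.25), basement membrane zone collagens that release antiangiogenic fragments, did not pass, although all starved arrays lay above all control arrays for both. Col26a1 (−0.08) did not pass.

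Probe sets of the same chain mostly gave the same direction. Of the 17 risen chains 10 had more than 1 probe set, with 11 further probe sets. Of those 11, 9 were called higher and 0 lower when each probe set was tested on its own, where 20.4% of all probe sets were called higher and 20.5% lower. The exceptions were the dimmer probe sets of Col5a3 (0.04) and Col5a2 (0.20). The brightest probe set gave the smallest difference in 6 of the 10 chains and the largest in 3. Col3a1 was an example, with 0.59 on the probe set that averaged 12.95 ± 0.08 in starved and 12.36 ± 0.06 in control arrays, and 1.03 on the one that averaged 9.55 ± 0.08 in starved and 8.51 ± 0.12 in control arrays (SD, n = 3 each). Col1a2 and Col18a1 did not pass on the brightest probe set and rose on another.

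**Figure D4:**
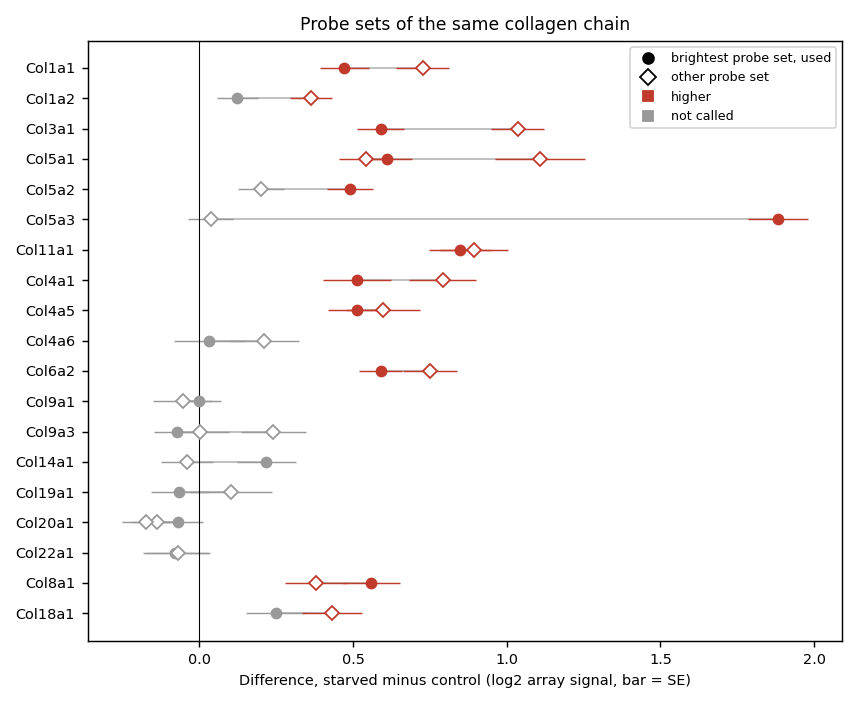
Differences between starved and control arrays (log2 array signal, x axis, bars are SE) of every probe set of the 19 chains with several. Filled circles are the brightest probe sets and open diamonds the others, red where the probe set was called higher and grey where it was not. Col5a3 shows the widest gap, from 1.88 to 0.04.

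Upstream sequences are shown for Col5a3, which had the largest fibrillar difference, Col6a3 and Col6a1, which had the largest beaded-filament differences, and Col3a1. They come from RefSeq on GRCm38.p6, which had a window for 27 of the 36 chains. The sequences run 5′ to 3′ on the gene's strand up to the outermost annotated start of the gene. Capitals mark 4 motifs searched on both strands, the CCAAT box (CCAAT), the GC box bound by Sp1 (GGGCGG), the AP-1 site (TGANTCA) and the SMAD-binding element (CAGAC, or GTCTG where it lies on the opposite strand). Col5a3 is at chr9:20815118-20815317, minus strand, and holds 1 CCAAT box and 1 GC box. Col6a1 is at chr10:76726045-76726294, minus strand, with 1 AP-1 site. Col6a3 is at chr1:90844002-90844221, minus strand, with 2 SMAD-binding elements, and Col3a1 is at chr1:45311288-45311537, plus strand, also with 2.
Col5a3: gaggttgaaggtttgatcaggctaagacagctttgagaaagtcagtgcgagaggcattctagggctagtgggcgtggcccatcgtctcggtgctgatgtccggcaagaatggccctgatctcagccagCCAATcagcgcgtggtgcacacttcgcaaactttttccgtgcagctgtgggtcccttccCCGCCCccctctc
Col6a1: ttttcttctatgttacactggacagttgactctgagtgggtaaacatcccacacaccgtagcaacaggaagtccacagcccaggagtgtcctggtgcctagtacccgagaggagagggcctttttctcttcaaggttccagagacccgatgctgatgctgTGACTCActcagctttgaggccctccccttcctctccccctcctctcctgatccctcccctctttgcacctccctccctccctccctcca
Col6a3: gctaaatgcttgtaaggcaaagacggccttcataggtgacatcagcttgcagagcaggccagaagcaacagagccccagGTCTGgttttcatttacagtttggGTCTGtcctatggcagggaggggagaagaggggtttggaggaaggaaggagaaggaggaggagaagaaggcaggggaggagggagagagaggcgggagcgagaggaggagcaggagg
Col3a1: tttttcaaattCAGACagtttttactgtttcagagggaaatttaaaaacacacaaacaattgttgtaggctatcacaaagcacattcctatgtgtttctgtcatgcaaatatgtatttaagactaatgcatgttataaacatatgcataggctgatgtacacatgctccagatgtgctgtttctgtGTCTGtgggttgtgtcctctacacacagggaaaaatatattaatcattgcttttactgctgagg

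The motifs were also counted over the 250 bases before the outermost start that had a window, in risen chains and in the others. For Col5a3 and Col6a3 these 250 bases reach into the annotated gene, so the printed sequences are shorter (200 and 220 bases). The SMAD-binding element was found in 8 of 14 risen chains and 4 of 13 others, and in 42.2% of all 27025 windows of that length. The GC box was found in 9 of 14 risen chains and 6 of 13 others, and in 33.0% of all windows. The CCAAT box was found in 7 of 14 and 4 of 13, and in 34.5% of all windows. The AP-1 site was found in 1 of 14 and 0 of 13, and in 6.85% of all windows. No test was made, and a match describes these letters only.

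Collagen genes that lie next to each other in the mouse genome did not always move alike. By the RefSeq order of protein-coding genes, 6 pairs of measured chains are direct neighbours. Col3a1 and Col5a2 on chromosome 1 both rose (0.59 and 0.49), as did Col6a1 and Col6a2 on chromosome 10 (0.87 and 0.59) and Col4a1 and Col4a2 on chromosome 8 (0.51 and 1.08). Of the X-linked neighbours, Col4a5 rose (0.51) and Col4a6 did not pass (0.03). Col4a3 with Col4a4, and Col9a1 with Col19a1, held no called chain.

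Enzymes that modify the nascent chains went both ways, as genes in general did (22.1% higher and 22.0% lower). The list of prolyl and lysyl hydroxylases and glycosyltransferases had 12 measured members (4 higher or 33.3%, 3 lower or 25.0%, 5 not passing, median −0.06). The members that fell were all subunits of prolyl 4-hydroxylase, whose hydroxyproline stabilises the triple helix. P4ha2, a catalytic subunit, read 9.63, 9.62 and 9.47 in starved arrays, against 10.19, 10.16 and 10.09 in control arrays (−0.57, SE 0.07, adjusted p = 0.000156). P4ha1, the other main catalytic subunit, read 10.20, 10.33 and 10.22 in starved arrays, against 10.76, 10.71 and 10.75 in control arrays (−0.49, SE 0.07, adjusted p = 0.000274). P4hb, the shared subunit that is also a protein disulfide isomerase, fell by 0.38 (adjusted p = 0.0282), with groups that met at 12.34 and a call lost without control replicate 1 or 2 or without starved replicate 1 or 3. The members that rose were the lysyl hydroxylase Plod3 (0.47), P3h4 (0.35), the collagen galactosyltransferase Colgalt1 (0.29) and P3h3 (0.22), whose call was lost without any single array but starved replicate 3. Plod2, a lysyl hydroxylase for crosslinking sites, averaged 8.77 ± 0.28 in starved and 9.03 ± 0.07 in control cells (SD, n = 3 each) and did not pass. After poly-A centring this list had 0 higher and 8 lower of 12 members, where 75.2% of all genes were lower.

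Genes for folding and export of procollagen were called about as often as all genes. Of 11 measured members 2 rose, 2 fell and 7 did not pass (median 0.06), which is 18.2% in each direction, against 22.1% and 22.0% of all genes. Serpinh1, the collagen-specific chaperone HSP47, read 12.58, 12.57 and 12.59 in starved arrays, against 12.54, 12.44 and 12.61 in control arrays, and did not pass (0.06, SE 0.07, adjusted p = 0.56). Creb3l1, a transcription factor that promotes collagen secretion, rose by 0.59, and the prolyl isomerase Fkbp9 rose by 0.25, which lay at −0.18 after poly-A centring and was not called without control replicate 2. The vesicle coat GTPase Sar1b fell by 0.27 and the disulfide isomerase Pdia3 by 0.36, though the call of Pdia3 was lost without control replicate 2 or 3. Of procollagen processing genes, which trim the secreted precursor or activate the proteinases that do, 4 of 8 rose and 0 fell (median 0.08). They were the enhancer of C-proteinase Pcolce2 (1.13, dim), the proteinase Tll1 (0.91, dim), Bmp1 (0.30) and Furin (0.27), while the related enhancer Pcolce did not pass (−0.12). The call of Bmp1 was lost without any single array but starved replicate 3. It was also lost with its probe sets averaged (0.115) and with a further quantile normalization (0.255). The call of Furin was lost without control replicate 1 or 2 or without starved replicate 1 or 2. After poly-A centring the folding genes numbered 0 higher and 8 lower of 11, and the processing genes 2 and 4 of 8, against 75.2% lower over all genes. Of 4 lysyl oxidases, which crosslink the fibres, Loxl1 (0.42) and Lox (0.31) rose and 2 did not pass, but after poly-A centring both lay below 0.

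**Figure D5:**
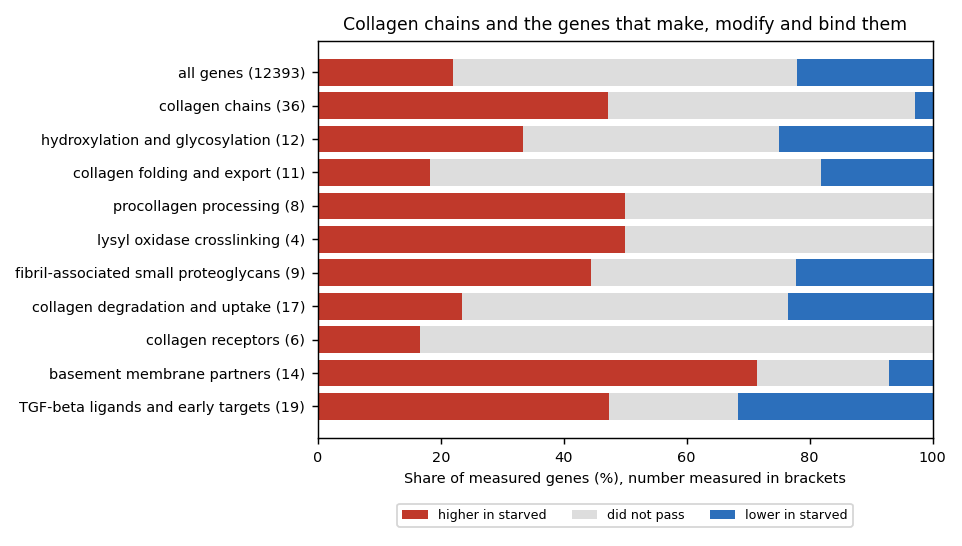
Share of measured genes (x axis, percent) that were higher in starved cells (red), did not pass (grey) or were lower (blue) for all genes, the collagen chains and 9 lists of genes that make, modify, bind or break down collagen. The number measured stands in brackets, and red covers 47.2% of the bar of the chains.

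Small proteoglycans that bind fibrils went both ways. Of 9 measured members 4 rose, 2 fell and 3 did not pass, giving a median of −0.18. Fmod (fibromodulin), which controls fibril thickness and crosslinking, read 8.88, 8.72 and 8.46 in starved arrays, against 6.28, 6.54 and 6.23 in control arrays, a 5.06-fold rise (2.34, SE 0.12, adjusted p = 4.68e-07). Prelp (0.62), Dcn (decorin, 0.31) and Bgn (biglycan, 0.29) also rose, and Dcn lay at −0.11 after poly-A centring. Ogn fell by 0.49 and Omd by 0.44. Genes of collagen breakdown and uptake numbered 17, with 4 higher, 4 lower and 9 not passing (median −0.07), and its 23.5% in each direction was close to the 22.1% and 22.0% of all genes. The protease inhibitors Timp1 (0.70) and Timp2 (0.55) and the metalloproteases Mmp2 (0.34, a gelatinase) and Mmp16 (0.40, membrane-bound) rose. The collagenase Mmp13 fell by 0.91 (SE 0.10, adjusted p = 5.1e-05), and the lysosomal protease Ctsb (−0.39), the serine protease Fap (−0.45) and the prolidase Pepd (−0.29) also fell. Averaged over probe sets, Ctsb lay at −0.03 and Timp2 at 0.17 and neither passed. The membrane collagenase Mmp14 did not pass (0.09). Of 6 collagen receptors 1 rose, the receptor kinase Ddr1 (0.57), 0 fell and 5 did not pass, among them Ddr2 (−0.25, adjusted p = 0.0931). After poly-A centring the proteoglycans numbered 1 higher and 5 lower of 9, the breakdown genes 1 and 12 of 17, and the receptors 0 and 5 of 6, beside 75.2% lower over all genes.

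Partners of type IV collagen in the basement membrane rose in most cases. Of 14 measured members 10 rose (71.4%), 1 fell (7.14%) and 3 did not pass (median 0.36), against 22.1% and 22.0% of all genes. After poly-A centring 3 were higher and 3 lower, where 6.94% and 75.2% of all genes were so called. The laminin chain Lamb2 read 8.71, 8.78 and 8.27 in starved arrays, against 7.44, 7.12 and 7.48 in control arrays (1.24, SE 0.14, adjusted p = 7.02e-05). Lama4 rose by 0.98 (SE 0.08, adjusted p = 7.49e-06) and the heparan sulfate proteoglycan Agrn by 0.80, whereas the laminin chain Lama1 fell by 0.65. Sparc, a collagen-binding matrix protein, rose by 0.33. TGF-beta signalling is the best-known inducer of collagen genes. Of 19 measured ligands, signal mediators and early targets 9 rose (47.4%), 6 fell (31.6%) and 4 did not pass (median −0.004). Over all genes 22.1% rose and 22.0% fell. The ligands Tgfb2 (0.90), Tgfb1 (0.64) and Tgfb3 (0.46) all rose, as did the receptor Tgfbr2 (0.45). The receptor Tgfbr1 (−0.22, adjusted p = 0.0281, limma), Smad2 (−0.23, adjusted p = 0.0359) and Smad6 (−0.32, adjusted p = 0.00382) fell. The latent TGF-beta binding proteins Ltbp2 (1.09) and Ltbp1 (0.47), Smad4 (0.60), Tgif1 (0.57) and Ski (0.36) rose. The targets Bhlhe40 (−1.02), Pmepa1 (−0.50) and Smad7 (−0.41) also fell, and Ccn2 (−0.07) and Tgfbi (−0.17) did not pass. Tgfbi was called lower under other settings, at −0.25 with its probe sets averaged and −0.41 without probe sets that can bind several transcripts. After poly-A centring the TGF-beta list had 2 higher and 10 lower of 19 members, where 6.94% and 75.2% of all genes were so called.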

How the data were processed

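Signals of 6 arrays (3 starved, 3 control, grouped by sample title) were compared. The deposited log2 values, 1 for each probe set on each array, were made with affy and RMA per the submitters' processing notes (versions: not given in the sources used here). This method gives all arrays nearly the same distribution, so a change in total RNA per cell is removed, and it compresses differences of dim genes. Of 22690 probe sets, 64 control sets were set aside from the tests, and those with several genes (691) or no gene listed (1555) were left out, which left 20380 probe sets and 12393 genes. Symbols came from the platform annotation, and the identifiers of all 36 chains matched RefSeq (GRCm38.p6). No filter on dim genes was applied. Starved and control arrays were compared by lmFit and eBayes of limma 3.58.1 (R 4.3.3, two-sided, no covariate), which was tested on simulated data. Plots and sequences used Python 3.11.15, pandas 2.3.3 and matplotlib 3.10.9. An exact permutation test of 3 arrays against 3 cannot give p below 0.1, so none was used. Named genes are all chains, up to 3 risen and 3 fallen members of each list with the smallest adjusted p, and fixed genes, of which Itga11, Adamts2 and Runx2 were not analysed here. P3h3, Bmp1, Bgn, Mmp16, Fap, Tgfb1, Tgfb2, Tgfb3, Tgfbr1, Tgfbr2, Smad2, Smad6, Ltbp1 and Ski were named after their values were seen. So were the cell type markers other than Vim, Pdgfra, Sox9 and Acan. The members, classes and lists were chosen with earlier results of these data known. Marker lists of 9 cell types were written, and their counts stand beside 22.1% of all genes higher and 22.0% lower. In each list but that of fibroblasts most markers were dim. Of 11 fibroblast markers 5 rose (Fn1, Prrx1, Twist1, Pdgfra, Vim) and 3 fell (Twist2, Thy1, Pdgfrb). The call of Vim was lost without any single array but starved replicate 1, with the replicate block and with array-median centring. That of Pdgfrb was lost without control replicate 3, with its probe sets averaged (−0.191) and without probe sets that can bind several transcripts (−0.105). Of 5 osteoblast markers 1 rose (Phex) and 0 fell. Of 10 epithelial markers Cdh1 rose and Krt1 fell, and of 10 skeletal muscle markers Acta1 rose and Ckm fell. Of 8 adipocyte markers 0 rose and 2 fell (Fabp4, Cebpa), and of 9 neural markers 2 rose (Map2, Mbp) and 0 fell. Of 10 endothelial markers 0 rose and 3 fell (30%, Flt1, Kdr, Pecam1), and of 10 macrophage and blood markers Cd68 rose and 2 fell (20%, Cd14, Coro1a). Alternatives were other probe set rules, filters, scalings, thresholds, eBayes settings, array weights, a replicate block and each array left out.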

Additional observations from a re-analysis of the deposited data

How the results depend on the processing

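All 17 risen chains kept their call with a further quantile normalization, centring on array medians, array weights, trend and robust eBayes, the mean of probe sets, the replicate block (17 higher, 0 lower), a stricter adjusted p (0.01) and each array left out (17 to 19 chains higher, 0 to 1 lower). Without probe sets that can bind several transcripts the 14 of them still measured kept it, and without the dimmest 40% of genes the 15 still measured. The number of lower chains was 0 instead of 1 without the dimmest 40% of genes, with quantile normalization, trend and robust eBayes, array weights, the replicate block, each probe set tested alone, treat, a stricter p (0.01) or a minimum difference of 1 (log2), and it was 2 with centring on array medians, 8 with centring on hybridization spike-ins and 17 with centring on poly-A spike-ins. With treat 12 of the 17 risen chains kept their call, and Col1a1, Col4a1, Col4a5, Col7a1 and Col16a1 lost it. Higher chains numbered 7 with the poly-A centring and 4 with the minimum difference of 1. All genes called numbered 10181 instead of 5463 with the poly-A centring, 543 with the minimum difference of 1 and 2253 with treat against a 1.2-fold change. Higher genes were 50.1% of all calls as deposited, 42.3% with centring on array medians, 21.5% on hybridization spike-ins and 8.45% on poly-A spike-ins. Under the poly-A centring these genes, called in 1 or both of the deposited and centred values, turned from positive or about 0 to negative: Col1a2 (−0.30), Col4a3 (−0.36), Col4a6 (−0.39), Col9a1 (−0.43), Col11a2 (−0.36), Col13a1 (−0.39), Col15a1 (−0.31), Col16a1 (−0.057), Serpinh1 (−0.37), Mmp14 (−0.33), Vim (−0.23), Fkbp9 (−0.18), Furin (−0.16), Colgalt1 (−0.13), Lox (−0.12), Dcn (−0.11), Sparc (−0.10), Pdgfra (−0.091), Mmp2 (−0.087), P3h4 (−0.075), P3h3 (−0.209), Bgn (−0.132), Bmp1 (−0.131), Sox5 (−0.07), Twist1 (−0.032), Mmp16 (−0.027), Matn3 (−0.01) and Loxl1 (−0.003). Col14a1 (−0.21) and Col18a1 (−0.18) turned too without being called in either. Pdgfra was also at −0.034 with the mean of its probe sets. These shifts follow from subtracting 1 value per array, whose error all genes share. Deviations of same-numbered starved and control arrays correlated between −0.022 and 0.002. These values cannot show whether such arrays were paired, and the labels give only the shared number. The replicate block called 5274 genes. No other cause of a lost call was tested. Array signals hold no read depth, and 16 of the 18 chains that did not pass were among the dimmest 40% of genes.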
